A study of Mus musculus with 8 samples.

Results

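The plasminogen activator system was described in AML12 cells through 5 genes, Plaur, Plau, Plat, Serpinb2 and Serpine2, out of 55401 genes listed for each culture dish. The genes were chosen by symbol, when the differences between exposed and control dishes in these same data were already known. For these 5 genes the differences between conditions are therefore a description, and no test of them is given. AML12 is a hepatocyte line established from a mouse transgenic for human TGF-alpha. RNA-seq compared 4 control dishes with 4 dishes exposed for 1 h to Opti-ELF-WMF, a magnetic field of 10 µT (100 mG) delivered in 4 ms pulses whose frequency climbed from 1 to 8 Hz in repeated cycles. All dishes shared the same serum-containing medium with dexamethasone and insulin-transferrin-sodium selenite, and came from a single batch of cells, so the spread between dishes may be technical. Control dishes stood in a separate incubator with the stimulator off, so exposure and incubator cannot be told apart.

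Plasminogen is a circulating zymogen that hepatocytes release. Urokinase (Plau) and tissue plasminogen activator (Plat) cut it to plasmin, which degrades fibrin and matrix proteins. The urokinase receptor (Plaur) is a GPI-anchored protein that holds urokinase at the cell surface, and with vitronectin and integrins it takes part in adhesion and migration. The activators are held in check by serpins, among them PAI-2 (Serpinb2) and protease nexin-1 (Serpine2), and LRP1 and related receptors take up the complexes. In the liver the system is known for its part in matrix turnover and in activating hepatocyte growth factor after injury. Plaur and Plau are textbook targets of the ERK pathway and of AP-1, a family of transcription factors.

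In GENCODE M21 on GRCm38, Plaur (ENSMUSG00000046223) lies on chromosome 7 from 24462484 to 24475968, on the plus strand, with 7 exons in its coding transcript of 1506 bases. Plau (ENSMUSG00000021822) lies on chromosome 14 from 20836660 to 20843385 on the plus strand, with 11 exons. Plat (ENSMUSG00000031538) lies on chromosome 8 from 22757727 to 22782844 on the plus strand, with 14 exons. Serpine2 (ENSMUSG00000026249) lies on chromosome 1 from 79794197 to 79861180 on the minus strand, with 9 exons in its longest coding transcript. Serpinb2 (ENSMUSG00000062345) lies on chromosome 1 from 107511423 to 107535478 on the plus strand and overlaps Serpinb10. No other gene of the annotation overlapped the other members.

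The promoters of 3 members, Plaur, Serpinb2 and Serpine2, were read from RefSeq on GRCm38.p6 as the 250 bases before the start site, 5′ to 3′ on the gene's own strand. These are the members with an entry in the promoter table used here, and they are shown to set the receptor beside a pair of inhibitors; the windows of Plau and Plat were not analysed here. Capitals mark every match, on either strand, to the AP-1 motif TGANTCA, the CRE motif TGACGTCA, the GC box GGGCGG and the TATA box TATAAA. The Plaur window is chr7:24462233-24462482 (plus strand), the Serpinb2 window chr1:107511173-107511422 (plus strand), and the Serpine2 window chr1:79858666-79858915 (minus strand).
Plaur: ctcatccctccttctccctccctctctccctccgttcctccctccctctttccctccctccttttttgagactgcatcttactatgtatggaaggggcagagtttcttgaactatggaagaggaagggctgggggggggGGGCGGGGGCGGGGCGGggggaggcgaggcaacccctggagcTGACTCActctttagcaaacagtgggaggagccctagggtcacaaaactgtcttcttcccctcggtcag
Serpinb2: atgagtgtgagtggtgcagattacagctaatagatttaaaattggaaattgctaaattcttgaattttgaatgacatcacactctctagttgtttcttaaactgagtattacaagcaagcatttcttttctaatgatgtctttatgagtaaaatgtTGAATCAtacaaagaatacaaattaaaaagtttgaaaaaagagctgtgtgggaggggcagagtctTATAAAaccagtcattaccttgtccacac
Serpine2: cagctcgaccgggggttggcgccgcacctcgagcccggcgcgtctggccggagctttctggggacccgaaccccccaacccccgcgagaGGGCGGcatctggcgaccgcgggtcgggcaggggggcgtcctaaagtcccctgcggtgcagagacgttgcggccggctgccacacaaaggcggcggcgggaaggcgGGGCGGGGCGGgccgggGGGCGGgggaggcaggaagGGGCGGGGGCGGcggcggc

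The Plaur window held the AP-1 letters TGACTCA, beginning 69 bases before the start site (position -69), and 3 GC boxes that overlap or adjoin each other, from position -111. The Serpinb2 window held the AP-1 letters TGAATCA at position -94 and a TATA box at position -29. A further RefSeq start site of Serpinb2 gave a window with the same AP-1 and TATA letters at -181 and -116. The Serpine2 window held 6 GC boxes, the first at position -161, and no match to the AP-1, CRE or TATA letters. That window lies within the GENCODE span of Serpine2 (79794197 to 79861180), before an internal start site. The bases before the outer start of the gene were not analysed here. Of 32851 promoter windows of the same length, 6.75% held the AP-1 letters, 1.55% the CRE, 32.7% a GC box and 12.4% a TATA box. The AP-1 letters stood both in Plaur and in Serpinb2, which was listed at 0 TPM. A match of letters is a description of the window and not of a bound factor.

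Transcript levels were deposited as TPM, in which reads are corrected for transcript length and each dish is scaled to 1000000, so levels can be compared between genes. Read depth is not kept in TPM, so the counting error of each value is unknown. A gene was tested if 4 or more dishes had 1 TPM or more, which 12122 genes and 4 of the 5 members did. Differences are exposed minus control on the log2(TPM + 1) scale, with the standard error from limma.

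Plaur was higher in every exposed dish than in any control dish. It had 97.86, 103.97, 104.21 and 103.72 TPM in control dishes 1 to 4, and 116.90, 116.56, 112.39 and 116.21 TPM in exposed dishes 1 to 4. Within each condition 3 dishes lay close together and 1 lay lower, control replicate 1 and Opti-ELF-WMF replicate 3, yet the lowest exposed dish was still above the highest control dish. The means were 102.4 ± 3.06 TPM (SD, n = 4) and 115.5 ± 2.10 TPM (SD, n = 4), which is 12.8% higher in exposed dishes. The difference was 0.17 on the log2 scale (standard error 0.03), above that of 96.3% of all genes tested.

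Serpine2, the serpin protease nexin-1, which inhibits urokinase, tissue plasminogen activator and thrombin, was the other member without overlap. Control dishes 1 to 4 had 117.73, 112.09, 113.38 and 117.44 TPM, and exposed dishes 1 to 4 had 120.96, 139.30, 121.02 and 122.77 TPM. The exposed dishes were all above the controls, but 3 of them by little, and Opti-ELF-WMF replicate 2 stood well above the rest. The means were 115.2 ± 2.85 TPM (SD, n = 4) and 126.0 ± 8.90 TPM (SD, n = 4), a difference of 0.13 on the log2 scale (standard error 0.05). Without Opti-ELF-WMF replicate 2 the difference fell to 0.08 on the log2 scale.

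Plat, which encodes the fibrin-binding activator, overlapped between conditions. It had 16.79, 18.15, 18.08 and 17.82 TPM in control dishes 1 to 4, and 18.08, 19.28, 19.41 and 18.56 TPM in exposed dishes 1 to 4. The lowest exposed dish, replicate 1, lay among the upper controls, and without it the conditions did not overlap. The means were 17.7 ± 0.63 TPM (SD, n = 4) and 18.8 ± 0.63 TPM (SD, n = 4), and the difference was 0.08 on the log2 scale (standard error 0.04).

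Plau, which encodes the ligand of the urokinase receptor, had the lowest level of the 4 measured members. Control dishes 1 to 4 had 9.70, 9.86, 11.20 and 9.47 TPM, and exposed dishes 1 to 4 had 10.79, 10.58, 9.45 and 10.51 TPM. The highest dish of all was a control and the lowest was an exposed dish, so the control and exposed ranges were nearly the same. The difference was 0.04 on the log2 scale (standard error 0.06), smaller than its error. Leaving out a dish gave 0.08 for control replicate 3 and 0.07 for Opti-ELF-WMF replicate 3, and 0.02 for control replicate 1, 0.02 for Opti-ELF-WMF replicate 1 and 0.01 for control replicate 4.

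Serpinb2, which encodes the mostly intracellular inhibitor PAI-2, was listed at 0 TPM in all 8 dishes. Its overlapping neighbour Serpinb10 was listed at 0 in 7 dishes and at 0.05 TPM in control replicate 4.

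**Figure D1:**
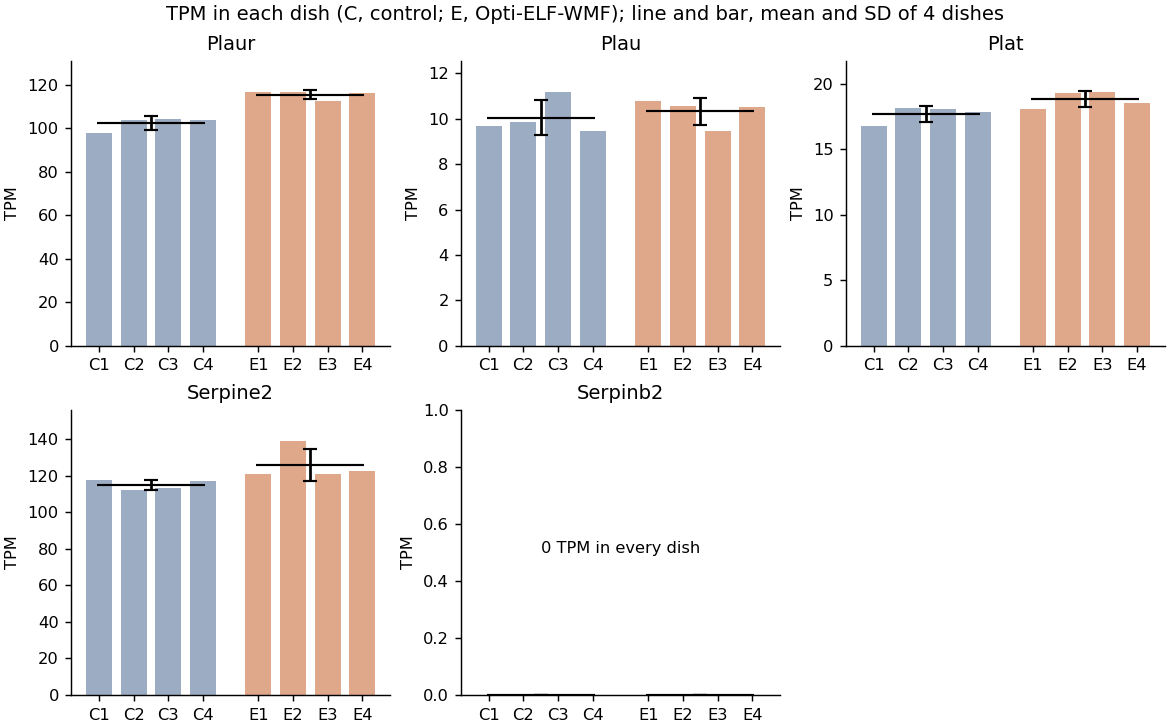
TPM of the 5 members in each dish (C1 to C4, control dishes; E1 to E4, Opti-ELF-WMF dishes), with each axis starting at 0. Horizontal lines and error bars give the mean and SD of 4 dishes. Plaur and Serpine2 lay higher in all 4 exposed dishes than in all 4 control dishes, Plau and Plat overlapped, and Serpinb2 was 0 throughout.

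Among the measured members, 2 of 4 had exposed dishes that lay entirely above the control dishes. Over all 12122 genes tested, 8.01% showed this pattern with exposed dishes higher, and 9.87% showed it in either direction. By limma with Benjamini-Hochberg adjustment, 0% of all genes tested had an adjusted p-value under 0.05, whereas 15.6% had an unadjusted p-value under 0.05 (1894 genes). The median difference was 0.11 on the log2 scale over the 4 members and 0.03 over all genes tested. Since the members were chosen with this contrast known, these shares are given only as the background.

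TPM is a closed total, and the abundant mitochondrial transcripts differed between the conditions. The share of TPM from mitochondria-encoded genes averaged 8.94% ± 0.34 (SD, n = 4) without exposure against 7.04% ± 0.76 (SD, n = 4) with it (p = 0.0286, two-sided exact permutation test, the smallest this design can give). Its part in the differences of the members was not tested. As deposited, 1894 genes had an unadjusted p-value under 0.05, and 76.6% of them were higher in exposed dishes. With TPM rescaled without mitochondria-encoded genes 1368 genes passed, 50.7% of them higher, with median-of-ratios scaling 1428 genes, 47.1% higher, and with upper-quartile scaling 1389 genes, 42.3% higher. The share of all genes whose exposed dishes lay entirely above the controls was 3.83%, 3.8% and 3.37% in the same order, against 8.01% as deposited. The difference of Plaur under these scalings was 0.14 in each case, that of Serpine2 0.09 to 0.10, that of Plat 0.05 to 0.06 and that of Plau 0.01, all on the log2 scale. Plaur and Serpine2 did not overlap between conditions under any of the 3 scalings, but Serpine2 by a smaller margin, which was very narrow after median-of-ratios scaling. As deposited, the highest control and lowest exposed dishes had 117.73 and 120.96 TPM for Serpine2, and 104.21 and 112.39 TPM for Plaur.

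**Figure D2:**
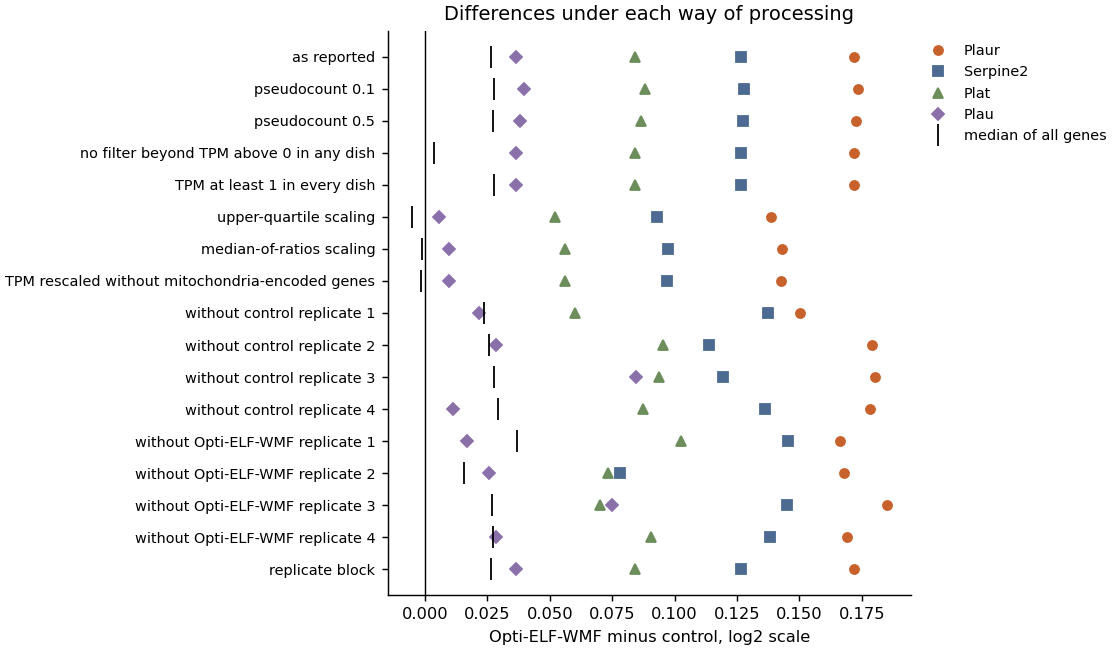
Difference between exposed and control dishes on the log2 scale (horizontal axis) for the 4 measured members under each way of processing (listed down the side), with the median over all genes tested as a vertical tick. Plaur stayed between 0.14 and 0.19 throughout, whereas Serpine2 was 0.08 without Opti-ELF-WMF replicate 2. Plau lay near the median of all genes both as deposited and under the 3 other scalings.

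Markers of hepatocytes were present, and most markers listed for endothelial cells, macrophages and stellate cells or fibroblasts stayed under 1 TPM. All 10 hepatocyte markers listed reached 1 TPM, with Hnf4a, the liver transcription factor, between 180.28 and 217.95 TPM, Alb between 46.12 and 58.22 TPM and Apoa1 between 3.12 and 5.29 TPM. Their summed level was 5691 to 5951 TPM in control dishes and 6042 to 6268 TPM in exposed dishes, most of it from the keratins Krt8 and Krt18. The part of this sum in the differences above was not tested. The markers did not all differ in the direction of the sum. Mean TPM in control and exposed dishes was 55.1 and 49.7 for Alb, 4.54 and 3.77 for Apoa1, and 358.3 and 348.4 for Ttr, each with overlap. The rest of the 10 had higher means in exposed dishes, with only Krt8 and Krt18 free of overlap. The 6 endothelial markers summed to at most 0.13 TPM in any dish, with Cdh5 at 0. Of 6 macrophage markers only Cd68 reached 1 TPM, at 1.05 to 2.21 TPM over all dishes, with a summed level of 1.6 to 2.55 TPM in control dishes and 1.63 to 1.95 TPM in exposed dishes, and Adgre1 and Marco at 0. The 8 stellate cell and fibroblast markers summed to 0.61 to 1.98 TPM and 0.67 to 1.38 TPM in the same order, with Lrat at 0 and Col1a1, the highest, reaching 1.2 TPM. In bulk RNA, fewer cells of a kind and less RNA per cell cannot be told apart.

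By level, the measured members formed a high pair and a low pair. In control dishes the order was Serpine2, Plaur, Plat and Plau, with a ratio of mean TPM of 5.78 between Plaur and Plat and of 1.76 between Plat and Plau, and neighbours in this order did not overlap. The order was the same in exposed dishes, again without overlap of neighbours, with ratios of 1.09 between Serpine2 and Plaur, 6.13 between Plaur and Plat and 1.82 between Plat and Plau.

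Ratios within a dish do not depend on the scaling of TPM. Plaur exceeded Plau by a ratio of 10.2 ± 0.71 (SD, n = 4) without exposure and 11.2 ± 0.47 (SD, n = 4) with it, and the conditions overlapped. The ratio of Plaur to Serpine2 was 0.89 ± 0.04 (SD, n = 4) and 0.92 ± 0.06 (SD, n = 4) in the same order, and that of Serpine2 to the summed activators Plau and Plat was 4.16 ± 0.26 (SD, n = 4) and 4.32 ± 0.23 (SD, n = 4), both with overlap.

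**Figure D3:**
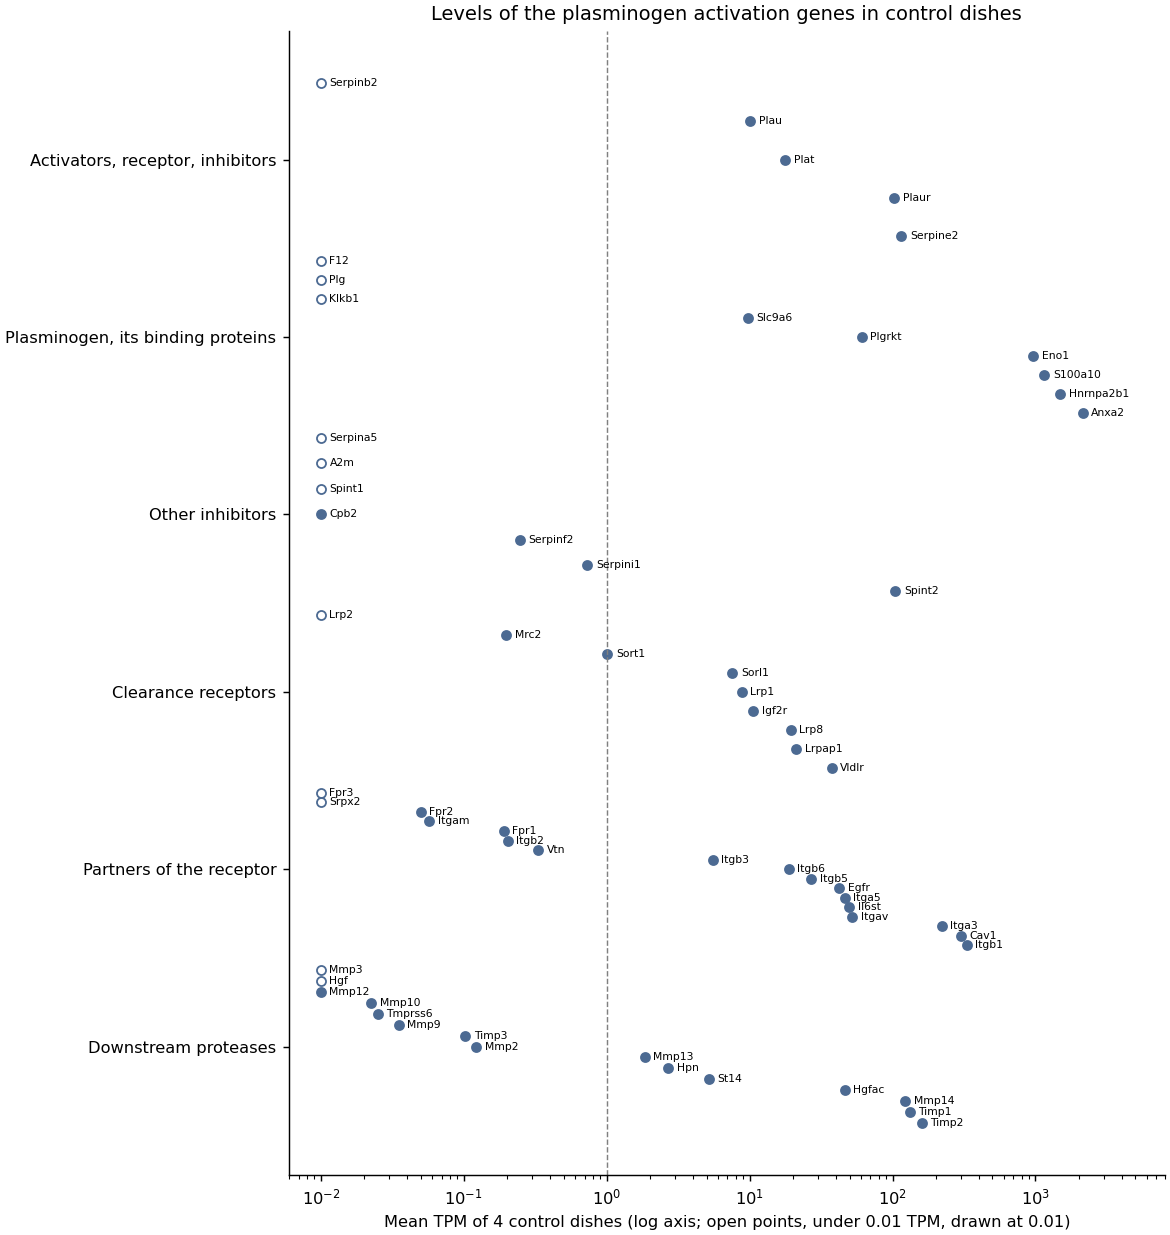
Mean TPM of 4 control dishes on a log axis for the 5 members and for 57 further genes of the system in 5 lists, with genes under 0.01 TPM drawn as open points at 0.01 and a dashed line at 1 TPM. Anxa2 (2137 TPM) was the most abundant gene drawn, Plaur (102.4 TPM) and Serpine2 (115.2 TPM) lay well to the right of Plau and Plat, and Plg was among the open points.

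A further 57 genes of the system in 5 lists were examined in the same fit, of which 31 passed the filter. The lists were also drawn up with earlier results of these data known. Their counts, shares and p-values, here and below, are therefore a description and not an independent test. By limma, 0 list genes passed after adjustment, 6 had an unadjusted p-value under 0.05 (5 higher and 1 lower), and 7 had conditions that did not overlap (5 higher and 2 lower). These are 19.4% and 22.6% of the 31 genes, beside 15.6% and 9.87% of all genes tested. The split depended on the scaling, with 3 higher and 4 lower at an unadjusted p-value under 0.05 after upper-quartile or median-of-ratios scaling, and 3 higher and 3 lower without mitochondria-encoded genes. The higher genes there were Anxa2, Eno1 and Timp1, and the lower ones Itgb6, Plgrkt, Hgfac and, after upper-quartile or median-of-ratios scaling, Itgb3, of which Plgrkt, Hgfac and Itgb3 are named after their values were seen. The median difference of the 31 genes was 0.03 on the log2 scale, as over all genes tested.

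Transcripts of the substrate itself and of several circulating parts of the system were not seen or nearly so. Plg, which encodes plasminogen, was listed at 0 TPM in 7 dishes and at 0.02 TPM in control replicate 4. F12, a coagulation factor that can activate the system, was at 0 in every dish, and Klkb1 did not exceed 0.02 TPM. Of the 7 other inhibitors, 5 stayed under 1 TPM in every dish, among them Serpinf2, the plasma inhibitor of plasmin, at 0.15 to 0.33 TPM. Vtn, which encodes the receptor's matrix ligand vitronectin, had 0.15 to 0.49 TPM.

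Transcripts of several genes whose proteins can bind plasminogen were abundant. Protein amounts and their place in the cell were not measured here. Of 9 genes listed for plasminogen and its binding, 6 passed the filter. Of these, 2 had an unadjusted p-value under 0.05, both higher, beside 15.6% of all genes tested. Anxa2, which encodes annexin A2, the docking partner of plasminogen and Plat, had 2132.15, 2161.93, 2128.43 and 2124.79 TPM in control dishes 1 to 4, and 2427.57, 2349.90, 2326.24 and 2259.23 TPM in exposed dishes 1 to 4. The exposed dishes were all above the controls and spread more widely. The difference was 0.13 on the log2 scale (standard error 0.03, unadjusted p = 0.000458, adjusted p = 0.122, limma). Eno1, a glycolytic enzyme that also binds plasminogen and whose reads may be shared with the near-identical copy Eno1b, was 943.84 to 985.36 TPM in control dishes and 1023.71 to 1059.86 TPM in exposed dishes, also without overlap (difference 0.11 on the log2 scale, standard error 0.02, unadjusted p = 0.000525, adjusted p = 0.122, limma). S100a10, the partner of annexin A2 in the plasminogen-binding tetramer, named here after its values were seen, overlapped, with 1155 ± 22.5 TPM (SD, n = 4) and 1199 ± 25.2 TPM (SD, n = 4).

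Among the 7 other inhibitors, 1 passed the filter and 0 had an unadjusted p-value under 0.05. That gene was Spint2, named after its values were seen, which encodes a membrane-bound Kunitz inhibitor of serine proteases. It was 97.85 to 108.73 TPM in control dishes and 104.98 to 113.11 TPM in exposed dishes, with overlap (difference 0.07 on the log2 scale, standard error 0.04, unadjusted p = 0.123, adjusted p = 0.461, limma).

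Of 9 genes for receptors that clear the inhibited proteases, and for their chaperone Lrpap1, 7 passed the filter and 0 had an unadjusted p-value under 0.05, against 15.6% of all genes. Lrp1, the principal of these receptors, had 9.89, 8.14, 7.74 and 9.40 TPM in control dishes 1 to 4, and 8.86, 9.98, 7.94 and 6.01 TPM in exposed dishes 1 to 4. The conditions overlapped, and the lowest value came from Opti-ELF-WMF replicate 4. The difference was -0.10 on the log2 scale (standard error 0.13, unadjusted p = 0.449, adjusted p = 0.763, limma), and 0.02 without that dish.

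Of 17 genes for partners of the receptor, 10 passed the filter. At an unadjusted p-value under 0.05, 1 was higher and 1 lower, beside 15.6% of all genes tested. The count of partners ran from 1 to 3 with a dish left out. Itgb1, the integrin beta 1 subunit, was 325.42 to 337.13 TPM in control dishes and 341.84 to 358.66 TPM in exposed dishes. The conditions did not overlap (difference 0.08 on the log2 scale, standard error 0.02, unadjusted p = 0.0086, adjusted p = 0.171, limma). Under the 3 other scalings the Itgb1 difference was 0.04 to 0.05 on the log2 scale, the conditions overlapped, and the unadjusted limma p was 0.0802 to 0.133. Itgb6, an epithelial integrin subunit, was 18.41 to 19.08 TPM in control dishes and 16.95 to 17.89 TPM in exposed dishes. It lay on the lower side without overlap (difference -0.08 on the log2 scale, standard error 0.04, unadjusted p = 0.0493, adjusted p = 0.318, limma). Leaving out any dish raised the unadjusted limma p of Itgb6 above 0.05, to 0.0591 to 0.114. Under the 3 other scalings its difference was -0.11 on the log2 scale, without overlap, and the unadjusted limma p was 0.00641 to 0.0146. Itgb3, an integrin subunit that binds vitronectin and which is named after its values were seen, also lay lower without overlap, at 5.40 to 5.87 TPM and 4.64 to 5.39 TPM in the same order (unadjusted p = 0.115, adjusted p = 0.45, limma).

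Of 15 genes for proteases downstream of plasmin or of the same family, and their inhibitors, 7 passed the filter. Of these, 2 had an unadjusted p-value under 0.05, both higher and both inhibitors of matrix metalloproteinases, beside 15.6% of all genes tested. The count in this list ran from 1 to 3 with a dish left out. Timp1 was 125.42 to 136.37 TPM in control dishes and 140.84 to 150.36 TPM in exposed dishes, without overlap (difference 0.12 on the log2 scale, standard error 0.03, unadjusted p = 0.00391, adjusted p = 0.14, limma), but with overlap after upper-quartile or median-of-ratios scaling. Timp2 was 150.71 to 163.98 TPM in control dishes and 163.83 to 175.25 TPM in exposed dishes, with a narrow overlap (difference 0.09 on the log2 scale, standard error 0.03, unadjusted p = 0.0281, adjusted p = 0.251, limma). Under the 3 other scalings the Timp2 difference was 0.05 to 0.06 on the log2 scale with an unadjusted limma p of 0.1 to 0.159, and that p was 0.0525 to 0.078 when control replicate 4 was left out, or exposed replicate 1, 2 or 4. Mmp13, a collagenase named after its values were seen, was 1.65 to 2.05 TPM in control dishes and 2.16 to 2.21 TPM in exposed dishes, without overlap (unadjusted p = 0.0655, adjusted p = 0.358, limma). The other tested genes overlapped between conditions, among them Mmp14, a membrane-bound metalloproteinase, at 120.13 to 128.75 TPM over all dishes, and Hgfac, an activator of hepatocyte growth factor, at 37.82 to 47.37 TPM, both named after their values were seen. Of those not tested, Mmp3 and Hgf were at 0 in every dish and Mmp9 and Mmp2 did not exceed 0.25 TPM.

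**Figure D4:**
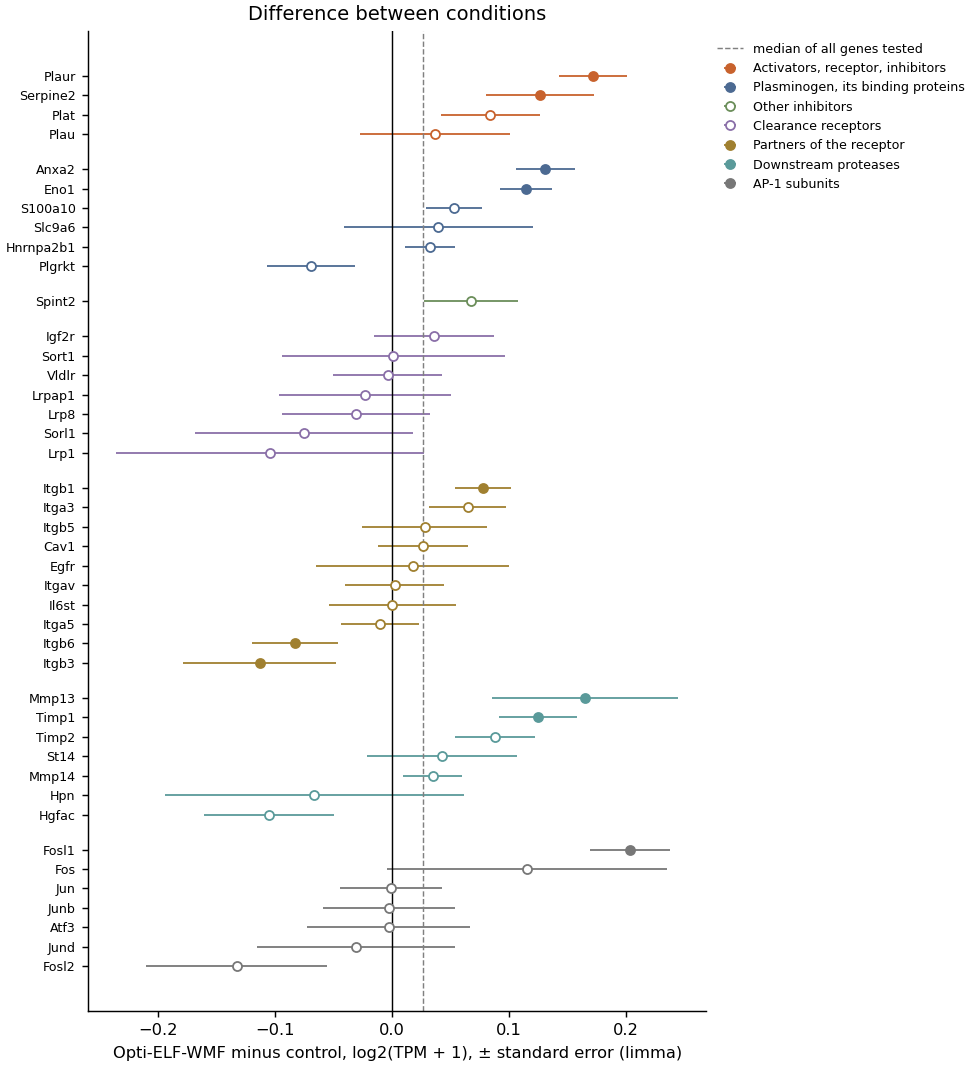
Difference between exposed and control dishes on the log2(TPM + 1) scale, with the standard error from limma, for the 4 measured members, the 31 tested genes of the 5 lists and the 7 tested AP-1 subunits. Filled points are genes whose 4 exposed and 4 control dishes did not overlap, the dashed line is the median of all genes tested (0.03), and Fosl1 (0.20) and Plaur (0.17) lay farthest to the right.

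AP-1 subunits were counted beside the system because of the AP-1 letters in the Plaur window. This list too was drawn up with earlier results of these data known, so its values are a description and not an independent test. Of 8 subunits, 7 passed the filter and 1, Fosl1, had an unadjusted p-value under 0.05, beside 15.6% of all genes tested. Fosl1 had 65.27, 69.10, 65.68 and 66.51 TPM in control dishes 1 to 4, and 73.22, 78.62, 75.99 and 79.68 TPM in exposed dishes 1 to 4, without overlap. Its difference was 0.20 on the log2 scale (standard error 0.03, unadjusted p = 0.000166, adjusted p = 0.122, limma). The median difference of the 7 subunits was -0.002 on the log2 scale. Fos, at 0.94 to 1.68 TPM over all dishes, was near the filter.

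The genes whose values were most like those of Plaur over the 8 dishes were ranked by Pearson's r of log2(TPM + 1) among all genes tested, as a description. The highest were Uba1, the ubiquitin-activating enzyme (r = 0.974), Tuba4a, an alpha-tubulin (0.973), Wdr36, a ribosome biogenesis factor (0.971), Zbtb3, a zinc finger protein (0.969), and Tspan4, a tetraspanin (0.966). All 5 were also without overlap between conditions, with differences of 0.10 to 0.20 on the log2 scale, so this likeness rests largely on the step between conditions, and dishes share a library each. Among the other genes described here, r with Plaur was 0.911 for Fosl1, 0.892 for Anxa2, 0.765 for Plat, 0.661 for Serpine2 and 0.402 for Plau. Fosl1 ranked 80th and Plau 3963rd.

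**Figure D5:**
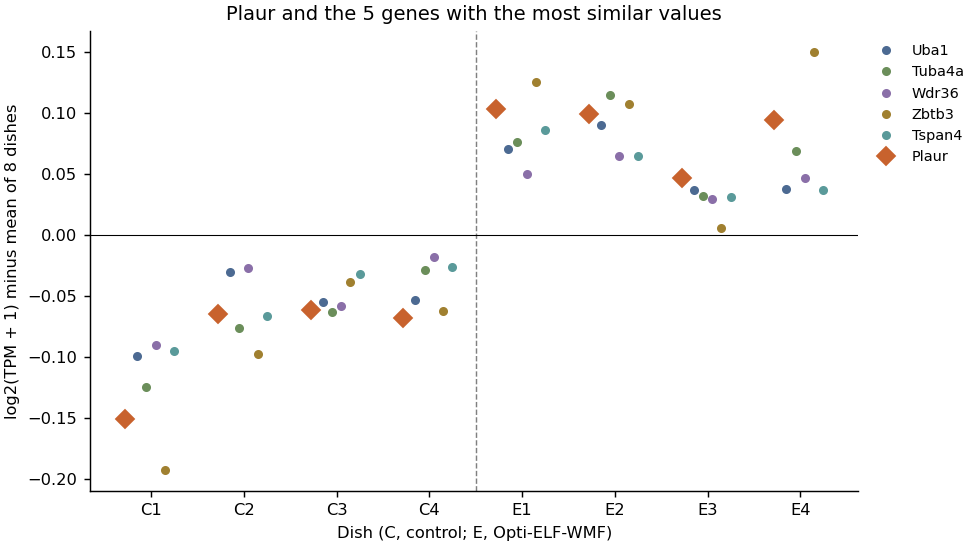
log2(TPM + 1) minus the mean of the 8 dishes for Plaur (diamonds) and the 5 genes with the highest Pearson r to it, by dish (C1 to C4, control; E1 to E4, Opti-ELF-WMF). All 6 genes lay below 0 in each control dish and above 0 in each exposed dish, and within conditions Plaur was lowest in C1 and in E3.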

How the data were processed

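The authors prepared stranded mRNA libraries from the RNA of 8 dishes and read them as Illumina paired ends. Per the labels, the submitters' processing notes name Trimmomatic 0.39, STAR 2.7.4a, RSEM 1.3.3 and the build mm10, and the annotation is not given in the sources used here. The authors deposited TPM, 1 table of 55401 genes per dish, each summing to 1000000. Of the gene identifiers, 55141 matched GENCODE M21.

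Genes with TPM of at least 1 in at least 4 dishes were tested on log2(TPM + 1) in R 4.3.3 using limma 3.58.1 with a trended variance prior, and p-values were adjusted by Benjamini-Hochberg over all genes tested and a threshold of 0.05. A count test was not used because TPM keeps no depth. The fit was run on simulated data in which each value was drawn independently, so deviations shared by the genes of a dish were not covered. Motifs and exact permutations were run in Python 3.11.15 with scipy 1.17.1. Named genes were the 5 members, list genes with an unadjusted p-value under 0.05 (at most 5 per list), Plg, Lrp1, Vtn and Itgb1, AP-1 subunits with an unadjusted p-value under 0.05, and the 5 genes most like Plaur by each measure. The members and lists were chosen with earlier results of these data known. Alternatives covered the pseudocount, filter, scaling, replicate block and leaving out each dish. A gene of the system is not reported here.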

Additional observations from a re-analysis of the deposited data

Results flagged for a closer look

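Dixon's test at the 95% level was applied to 51 sets of 4 replicate values, and a single dish was separated from its group in 8 of them. About 2.55 would be expected from independent and unselected sets. The genes here share dishes and many were chosen by their values, so whether 8 is an excess was not tested. Plaur was 97.86 TPM in control replicate 1, against 103.72 to 104.21 in the others, while among exposed dishes replicate 3 had 112.39 TPM and the rest 116.21 to 116.90. For Serpine2, Opti-ELF-WMF replicate 2 had 139.30 TPM and the rest 120.96 to 122.77. Timp2 was 150.71 TPM in control replicate 4, against 162.99 to 163.98, and for Itgb6, exposed replicate 1 had 16.95 TPM and the rest 17.85 to 17.89. Plg was 0.02 TPM in control replicate 4, against 0 in the others, and with such ties the test flags the remaining value whatever its size. Pif1 was 13.94 TPM in control replicate 1, against 16.95 to 17.20, and that dish also had the lowest control Spsb3, 19.91 TPM, where the rest had 23.02 to 23.23. These last 2 genes were ranked by their likeness to Plaur within conditions, so they repeat its low value in that dish and do not add to the count independently.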

How the results depend on the processing

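The differences of Plaur, Plat, Plau and Serpine2 kept their sign in all 16 alternatives. Among these, the filter changes and the replicate block cannot alter the difference of a member, so they add nothing here. With each dish left out in turn, the difference ran from 0.15 to 0.19 for Plaur, 0.08 to 0.15 for Serpine2, 0.06 to 0.10 for Plat and 0.01 to 0.08 for Plau, and that of the log2 ratio of Plaur to Plau from 0.10 to 0.17. With a TPM of at least 1 in every dish, upper-quartile scaling or median-of-ratios scaling, 1110028F11Rik alone passed after adjustment (1 gene), and leaving out a dish gave 0 to 2 genes (2 without control replicate 2, 1 without control replicate 3). The genes without overlap between conditions numbered 1196 as reported and 1505 to 1923 with a dish left out, most without Opti-ELF-WMF replicate 1, when fewer dishes can overlap. Adding replicate number as a block leaves each difference unchanged by design, since every replicate number occurs in both conditions. With the block, 1889 genes had an unadjusted p-value under 0.05 against 1894. The mitochondria-encoded share differed by -1.90 percentage points (p = 0.125 by exact sign flips, which 4 pairs cannot go below). At an unadjusted p-value under 0.05 the block also gave 1 gene in place of 0 among the other inhibitors and 1 in place of 2 among the receptor's partners, and it changed no call after adjustment. With a dish left out the difference in mitochondria-encoded share ran from -2.12 to -1.55, with an exact permutation p of 0.0571, the smallest possible. Same-numbered dishes did not deviate together (correlations from -0.0419 to 0.0258), and 0 of 4 control dishes correlated best with their own number. Since TPM keeps no depth, the counting error of low genes such as Plau is unknown.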

Other observations

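With the mean of each condition subtracted, the 5 genes whose remaining variation over the 8 dishes was most like that of Plaur were Pif1, a DNA helicase (r = 0.981), Cbx2, a Polycomb protein (0.975), Spsb3 (0.973), Zfp3 (0.972) and Rabgap1l (0.968). None of them was among the 5 genes most like Plaur with the condition means left in. Pif1 had 13.94, 17.20, 16.95 and 17.16 TPM in control dishes 1 to 4, and 16.14, 15.51, 13.62 and 15.04 TPM in exposed dishes 1 to 4, with a difference between conditions of -0.10 on the log2 scale. These genes shared the low values of control replicate 1 and Opti-ELF-WMF replicate 3. On this measure r with Plaur was 0.562 for Plau, 0.389 for Plat, 0.281 for Fosl1, 0.173 for Anxa2 and -0.01 for Serpine2.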
